A study of Mus musculus with 2 samples.

Results

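The 6 genes described here encode the enzymes that reduce or oxidise steroid hormones after they are made: Akr1d1, Srd5a1, Srd5a2, Srd5a3, Hsd11b1 and Hsd11b2. They were taken by gene name from the read tables of both libraries, and are 6 of the 17707 annotated genes that had a read in at least 1 library. Reads were found on all 6 genes in replicate 1, spread over 131 transcript models, and on 5 genes in replicate 2, over 112 models. The series holds 1 group of 2 libraries, biological replicates 1 and 2, of total RNA from the adrenal gland of female B6CASTF1/J mice aged 18-20 months, the F1 of a C57BL/6 and a CAST strain. Neither library was treated and no other age, sex or strain was used here. Each was prepared from 1 µg of RNA with spike-in RNAs and sequenced in long reads, in which 1 read stands for 1 cDNA molecule. The labels number the biosamples as different females but give both the same donor entry, so the spread between the libraries may be technical or biological. Counts by parental allele were not analysed here.

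Steroid reductases act at the double bond in the first ring of cortisol-like hormones, progesterone and testosterone. Akr1d1 encodes the 5-beta-reductase, an aldo-keto reductase best known in liver, where it inactivates these hormones and reduces intermediates of bile acid synthesis. Srd5a1 and Srd5a2 encode the 5-alpha-reductases, which convert testosterone to dihydrotestosterone and reduce progesterone and glucocorticoids. Srd5a3 belongs to the same family by sequence and is known for reducing polyprenol to dolichol, the lipid carrier of N-glycan assembly. Hsd11b1 encodes the enzyme that regenerates corticosterone from its inert 11-keto form with NADPH in the endoplasmic reticulum. Hsd11b2 encodes the opposite enzyme, which inactivates corticosterone and guards the mineralocorticoid receptor in the kidney.

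The libraries held 1412947 and 933963 reads on annotated genes, and the ERCC spike-in RNAs took 1.24% and 1.54% of all reads. At this depth a count of 0 allows up to 2.12 CPM (reads scaled to a common total of gene reads) in replicate 1 and 3.21 CPM in replicate 2. Intervals here are 95% exact intervals that cover counting error only. The gland's own markers were abundant: Cyp11a1, Cyp11b1, Cyp21a1, Star and Nr5a1 summed to 64639 CPM in replicate 1 and 64117 CPM in replicate 2.

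The sequences on which the isoform results turn are the exon junctions of Srd5a2 and Akr1d1 and the start region of Akr1d1. For Srd5a2 (chromosome 17, 74016955 to 74047916, minus strand, mm10), the annotated junction joins exon 1, which carries the start codon, to exon 2, and a part of the reads joined an exon far upstream to exon 2 instead. The last 20 bases of the first exon of each pair are in lower case and the first 20 bases of the next are in capitals, all from the GENCODE transcripts, so the capitals are the same exon 2 in both.
Srd5a2 exon 1 to exon 2: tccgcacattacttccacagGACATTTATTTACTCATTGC
upstream exon to Srd5a2 exon 2: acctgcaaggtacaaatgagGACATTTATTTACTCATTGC
For Akr1d1 (chromosome 6, 37530173 to 37568815, plus strand, mm10), the annotated junctions around exon 3 are shown with the junction of reads that left this exon out.
Akr1d1 exon 2 to exon 3: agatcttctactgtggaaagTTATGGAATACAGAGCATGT
Akr1d1 exon 3 to exon 4: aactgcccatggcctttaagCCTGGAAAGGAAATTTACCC
Akr1d1 exon 2 to exon 4: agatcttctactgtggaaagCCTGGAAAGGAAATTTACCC

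Akr1d1 supplied nearly all of the reads of the 6 genes. It had 3558 reads in replicate 1 and 2777 reads in replicate 2, or 2518 CPM (interval 2436 to 2602) and 2973 CPM (interval 2864 to 3086). Its mean of 2746 ± 322 CPM (SD, n = 2) was the 23rd highest of the 17707 genes, and its reads made up 91.6% and 88.5% of those of the 6 genes. Srd5a2 followed with 115 and 242 reads, at 81.4 CPM (interval 67.2 to 97.7) in replicate 1 and 259 CPM (interval 227 to 294) in replicate 2. The 5-beta-reductase gene was high in both libraries, while the counting intervals of both genes lie apart between the libraries, those of Srd5a2 the farther.

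Hsd11b1 had 155 reads in replicate 1 and 92 reads in replicate 2, a level of 110 and 98.5 CPM. Srd5a3 had 46 and 23 reads, a level of 32.6 and 24.6 CPM, and Srd5a1 had 8 and 5 reads, a level of 5.66 and 5.35 CPM. Hsd11b2 had a single read in replicate 1, 0.708 CPM (interval 0.0179 to 3.94), and 0 reads in replicate 2, which allows up to 3.21 CPM. The order of the mean levels was therefore Akr1d1, Srd5a2, Hsd11b1, Srd5a3, Srd5a1 and Hsd11b2, and it was the same in CPM per kb of the main annotated transcript (1017, 106, 64.1, 16.4, 2.08 and 0.192 CPM per kb). Srd5a2 and Hsd11b1 could not be ordered, because Srd5a2 lay below Hsd11b1 in replicate 1 and above it in replicate 2. Srd5a1 and Hsd11b2 could not be ordered either, since their counting intervals overlapped, whereas the other neighbours were apart in both libraries.

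**Figure D1:**
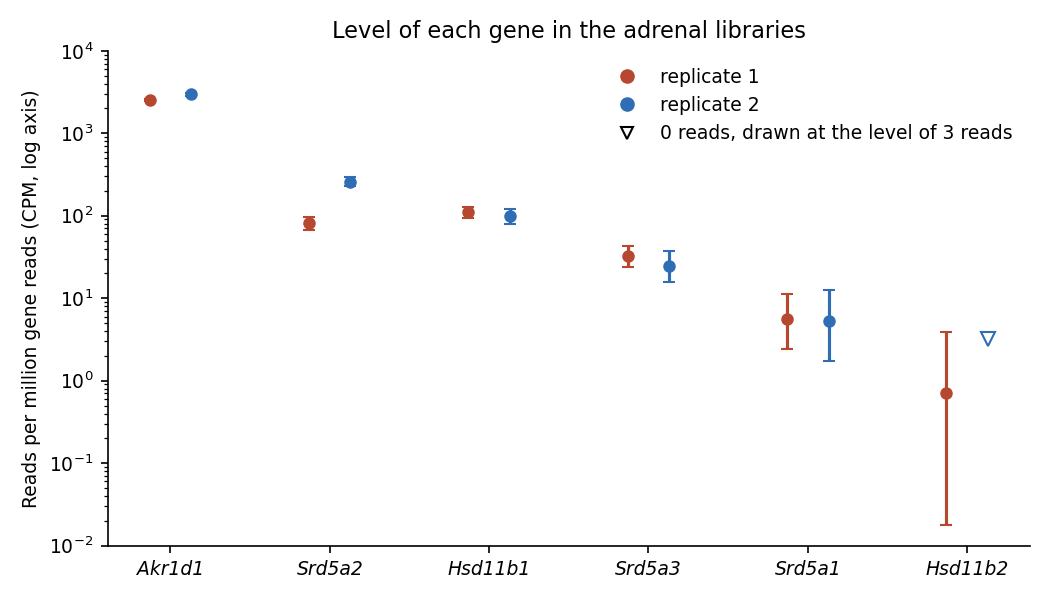
Level of each of the 6 genes, in CPM on a log axis, for replicate 1 (left point) and replicate 2 (right point) of each pair, with 95% exact Poisson intervals. Akr1d1 stands at 2518 and 2973 CPM, far above the rest, and Hsd11b2 has a single read in replicate 1 and none in replicate 2, where the open triangle marks the level of 3 reads.

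The libraries were compared gene by gene with a two-sided exact binomial test at TMM-scaled totals, with Benjamini-Hochberg adjustment over the 11068 genes that had at least 10 reads. Such a test compares these libraries only, and 12.4% of the tested genes passed it at an adjusted p of 0.05, with 6.21% higher and 6.2% lower in replicate 1. Of the 6 genes, 5 could be tested, 2 passed and were lower in replicate 1, and 0 were higher. Srd5a2, with 115 reads in replicate 1 against 242 in replicate 2, stood at 0.321 times the replicate 2 level (interval 0.255 to 0.403), a log2 ratio of -1.63 (adjusted p = 3.32e-23, exact binomial test). This ratio was the 142nd lowest of the 11068 genes. Akr1d1 stood at 0.866 times the replicate 2 level (interval 0.824 to 0.91), a log2 ratio of -0.21 (adjusted p = 7.67e-07, exact binomial test). The sign of the Akr1d1 ratio turned to 0.12 when the spike-in totals set the scale (adjusted p = 0.00756), which moved the median ratio of all genes by 0.31 on the log2 scale.

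The other 3 genes did not pass. Their log2 ratios were 0.19 for Hsd11b1 (adjusted p = 0.639), 0.43 for Srd5a3 (adjusted p = 0.577) and 0.10 for Srd5a1 (adjusted p = 1), all by the exact binomial test. The interval of the ratio ran from 0.874 to 1.49 for Hsd11b1, from 0.803 to 2.34 for Srd5a3 and from 0.312 to 4.2 for Srd5a1; the interval of Srd5a1, with 13 reads in all, covers changes of over 3-fold either way. The median log2 ratio of the 5 genes was 0.10, beside 0.02 over all genes tested. When the spread between the libraries was taken from all genes, a coefficient of variation of 21.5%, edgeR's exact test passed 0.244% of the genes and 0 of the 5, and the adjusted p of Srd5a2 was 0.151. At an unadjusted p under 0.05, edgeR's exact test passed 1 of the 5, Srd5a2, and 4.65% of all genes tested, and the binomial test passed 2 of the 5 and 23.1% of all genes tested.

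**Figure D2:**
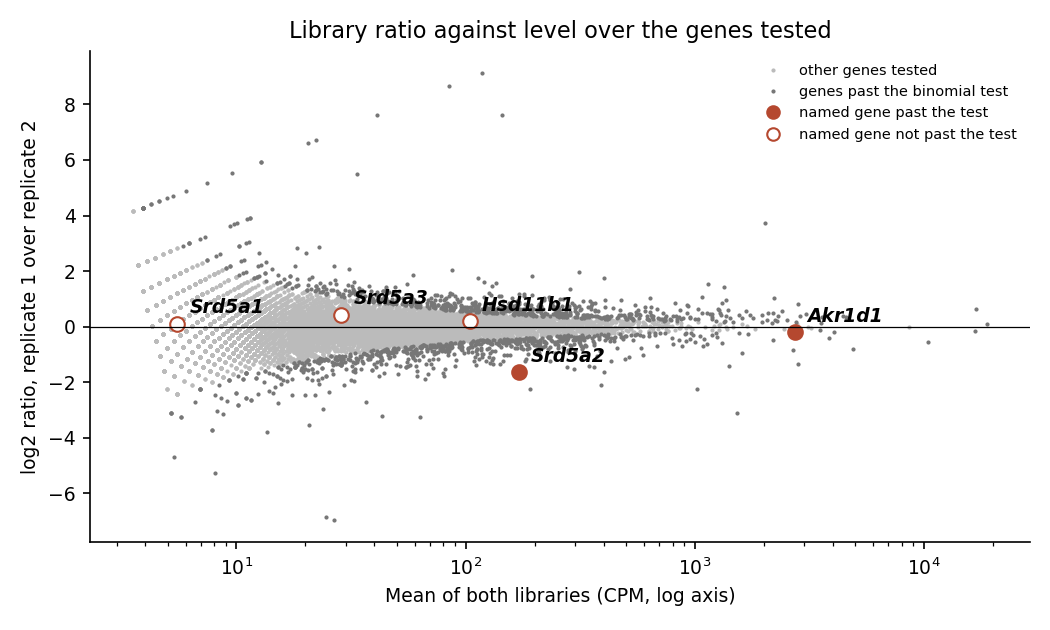
Log2 ratio of replicate 1 over replicate 2 against the mean level in CPM (log axis) for the 11068 genes tested, each a point, with dark points for genes past the binomial test. Filled circles mark Akr1d1 and Srd5a2, which passed. Open circles mark Hsd11b1, Srd5a3 and Srd5a1, which did not pass, at 0.19, 0.43 and 0.10. Srd5a2 lies at -1.63.

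The reads of Akr1d1 mostly followed the annotated gene. Its main annotated transcript (ENSMUST00000040987.10), of 9 exons and 2699 bases with 975 coding bases, held 2758 reads in replicate 1 and 2176 reads in replicate 2, or 77.5% (interval 76.1 to 78.9) and 78.4% (interval 76.8 to 79.9). The share did not differ beyond counting error (-0.84 percentage points, adjusted p = 0.888, Fisher's exact test over the 6413 genes that reached 20 reads in both libraries). Of those genes 2.21% passed that test, and 0 of the 4 genes here that could be measured, Akr1d1, Srd5a2, Srd5a3 and Hsd11b1, did. A start at the annotated first exon was found for 2875 reads (80.8%) in replicate 1 and 2245 reads (80.8%) in replicate 2. Models that end at the annotated 3' end held 99.2% and 98.9% of the reads. Models of annotated transcripts carry the annotation's ends, so these shares do not measure where the molecules ended. Another 9.3% and 11.7% began inside exons 2 to 9. Among them, single-exon reads of the last exon made up 80 reads (2.25%, interval 1.79 to 2.79) in replicate 1 and 114 reads (4.11%, interval 3.4 to 4.91) in replicate 2. That share was lower in replicate 1, and the intervals do not overlap.

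A second start of Akr1d1 models lay within its first intron, 2066 bases after the annotated one at position 37532239. A model carries 1 pair of ends for all its reads, so where single molecules began was not measured. Models with the intron start held 308 reads in replicate 1 (8.66%, interval 7.75 to 9.63) and 189 reads in replicate 2 (6.81%, interval 5.9 to 7.81). In most of these, 265 and 160 reads, exon 2 simply began 243 bases early and the transcript went on to the usual end. In 40 and 28 reads the extra stretch was spliced, leaving a new exon of 159 bases and an intron of 84 bases before exon 2. Exon 1 holds the start codon and the first 93 coding bases of the annotated transcript, and reads of this class lack it.

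Another class of Akr1d1 reads began 592 bases or more upstream and held an exon of 417 bases (37529581 to 37529997), in 40 reads of replicate 1 (1.12%, interval 0.804 to 1.53) and 16 reads of replicate 2 (0.576%, interval 0.33 to 0.934). All of these reads spliced out 214 bases (37529998 to 37530211) that span the annotated start, and resumed inside exon 1 ahead of the start codon at 37530245, so the annotated coding sequence begins in the same place. The intron lies wholly within the RefSeq promoter window of Akr1d1 (GRCm38.p6, chr6:37529923-37530222, plus strand), which is printed with the first and last pair of intron bases in capitals; they are GT and AG, the usual ends of an intron.
Akr1d1 start region: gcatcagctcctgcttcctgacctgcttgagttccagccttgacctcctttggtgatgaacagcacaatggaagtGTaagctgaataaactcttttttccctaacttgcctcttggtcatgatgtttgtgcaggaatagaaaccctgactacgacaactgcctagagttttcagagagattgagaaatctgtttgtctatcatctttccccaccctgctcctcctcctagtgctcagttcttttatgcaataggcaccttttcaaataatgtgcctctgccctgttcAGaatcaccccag
RefSeq windows were matched for 5 of the 6 genes, and in those of Akr1d1, Srd5a1, Srd5a2, Srd5a3 and Hsd11b1 neither strand holds the letters CAAGGTCA (bound by steroidogenic factor 1), TATAAA (the TATA box) or AGAACA (part of the site of the glucocorticoid and androgen receptors). Of all 32851 RefSeq promoter windows of the same length, 1.56%, 13.6% and 19.0% hold them.

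**Figure D3:**
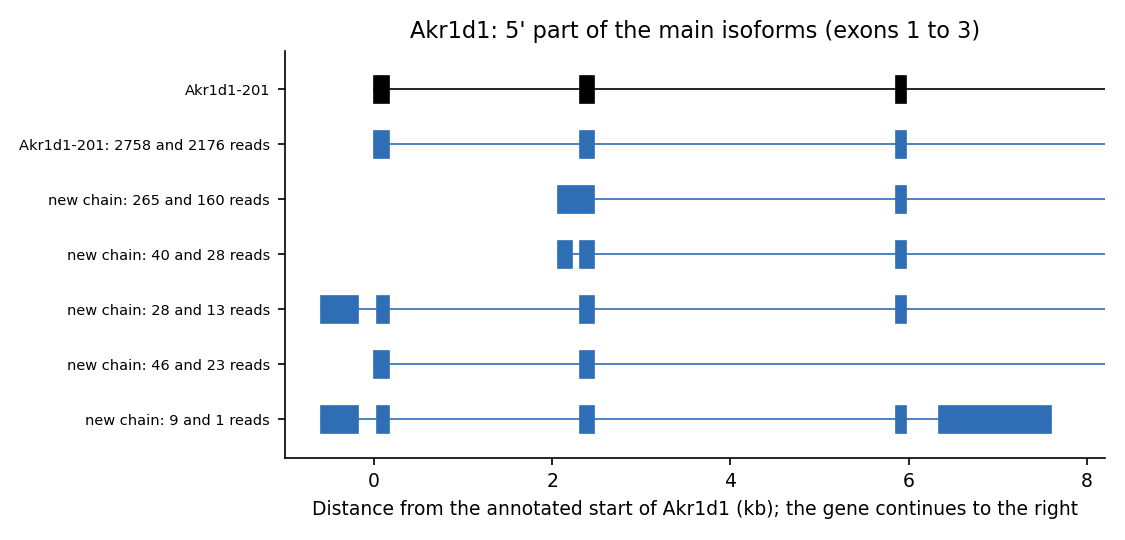
Exon map of the 5' part of Akr1d1 to scale, in kb from the annotated start, with exons as boxes and introns as lines; the black row is the annotated transcript and each blue row an isoform with its reads in replicate 1 and replicate 2. The rows show the start in the first intron (265 and 160 reads), its spliced form (40 and 28), the upstream first exon (28 and 13) and exon 3 left out (46 and 23). The last row is an early end in a further exon spliced after exon 3, in a chain that starts at the upstream first exon (9 and 1).

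Alternative splicing within Akr1d1 was rare. Exon 3, of 117 bases or 39 codons, was left out by 56 of the reads that spanned it in replicate 1 (1.71%, interval 1.29 to 2.21) and by 30 in replicate 2 (1.2%, interval 0.813 to 1.71). In 46 and 23 of them it was the only exon left out of the annotated chain. This joins exon 2 to exon 4 as printed above and keeps the reading frame. Exon 8, of 83 bases and so not a multiple of a codon, was left out by 20 reads (0.579%) and 11 reads (0.415%), exon 7 by 13 and 8 reads, and exon 2 by 6 and 8 reads. Models that end 1624 bases beyond exon 3 held 17 reads (0.478%) in replicate 1 and 5 (0.18%) in replicate 2. Among them, a chain of 4 exons from the annotated first exon held 7 and 4 reads, and a chain of 5 exons from the upstream first exon held 9 and 1. In both chains exon 3 was spliced to a further, last exon. Of the 79 new exon chains of Akr1d1, 28 were seen in both libraries, 18 reached 5 reads in a library and 48 rested on 1 read. Among the 18, 6 began inside exon 3 or a later exon and ran to the usual end, and 1, with 5 and 0 reads, differed from the annotated chain by an intron that began 4 bases later.

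Srd5a2 had a different makeup from the annotation. Its only annotated transcript (ENSMUST00000043458.8), of 5 exons and 1605 bases, held 19 reads in replicate 1 (16.5%, interval 10.3 to 24.6) and 70 reads in replicate 2 (28.9%, interval 23.3 to 35.1). The most abundant isoform was a new one, with 42 reads in replicate 1 (36.5%, interval 27.7 to 46) and 110 reads in replicate 2 (45.5%, interval 39.1 to 52). A new spliced chain was the main isoform in 8.25% of the 6413 genes measured. The authors' pipeline had named this chain NNC, a chain with a new splice site, in replicate 1, and NIC, a new combination of known sites, in replicate 2. It keeps all 5 annotated exons and the whole coding sequence of 254 codons. It differs in the 3' untranslated part of exon 5, where it removes 59 bases and runs 2064 bases past the annotated end, to 74014891. The share of this isoform differed by -8.93 percentage points (adjusted p = 0.611, Fisher's exact test), within counting error.

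The 59-base gap (74017151 to 74017209) begins 499 bases after the coding end and has the GT and AG ends of an intron. A repeat of 3 bases at its edges leaves its exact place uncertain by as many bases. Its edges, in the GENCODE transcript, are shown with the removed side in capitals.
gap start: tcatatgcagGTTCTAGATT
gap end: GTATGTTGAGggtcatatag
Of the reads that covered the place, 64 of 95 in replicate 1 (67.4%, interval 57 to 76.6) and 138 of 225 in replicate 2 (61.3%, interval 54.6 to 67.7) had the gap. Reads from the annotated first exon had it in 68.7% and 60.1%, and reads from the upstream first exon in 68.0% and 70.6%, so both classes of start carried it in most reads. Reads were not split by parental allele. Whether the gap is an intron or a difference between the parental genomes was not tested. Models that end past the annotated 3' end held 59 reads in replicate 1 (51.3%, interval 41.8 to 60.7) and 142 reads in replicate 2 (58.7%, interval 52.2 to 64.9). Of these reads 195 lay on models that end at 74014891. The 19 and 70 reads of the annotated transcript carry its end and cannot fall in this class. A model carries 1 pair of ends for all its reads, so the shared position does not measure where the molecules ended. No other gene of the 6 had more than 0.54% of its reads on models past its annotated end, with the same limit. Exon 4, of 151 coding bases, was left out by 6 reads in replicate 1 (6.06%, interval 2.26 to 12.7) and 17 reads in replicate 2 (7.49%, interval 4.42 to 11.7), most of them in new chains of 3 and 9 reads with the gap and of 2 and 7 reads without it.

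Reads assigned to Srd5a2 came from separate starts. The annotated first exon began 68 reads in replicate 1 (59.1%, interval 49.6 to 68.2) and 200 reads in replicate 2 (82.6%, interval 77.3 to 87.2). Starts upstream of the gene accounted for 43 reads in replicate 1 (37.4%, interval 28.5 to 46.9) and 30 reads in replicate 2 (12.4%, interval 8.52 to 17.2). In levels, the annotated first exon gave 48.1 CPM (interval 37.4 to 61) in replicate 1 and 214 CPM (interval 185 to 246) in replicate 2, and the upstream starts gave 30.4 CPM (interval 22 to 41) and 32.1 CPM (interval 21.7 to 45.9). The low total of replicate 1 thus lay with reads of the annotated start, at 0.23 times the replicate 2 level (interval 0.172 to 0.304), while upstream reads stood at 0.969 times (interval 0.594 to 1.6), and the intervals do not overlap. With the annotated start alone the log2 ratio of Srd5a2 was -2.11 (adjusted p = 1.18e-27, exact binomial test), and with the upstream starts alone it was -0.045 (adjusted p = 1). Both of these counts were chosen after seeing the data.

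The upstream reads fell into a pair of kinds. In 30 reads of replicate 1 and 19 of replicate 2 an upstream first exon was spliced into Srd5a2, and 0 of these reads held exon 1, which carries the start codon and 281 of the 762 coding bases. Of these 49 reads, 46 joined exon 2, 30 of them from the edge at 74073743 shown in the printed junction and 9 from a nearby edge at 74073754. The other 13 and 11 reads held no exon of Srd5a2 at all. Among the joined reads 42 of 49 began more than 100 kb upstream, the farthest 125924 bases before the annotated start, and among the rest 21 of 24 did. The exons they used most, 74073743 to 74073942 (34 and 24 reads), 74105178 to 74105291 (36 and 21 reads), 74080047 to 74080204 (31 and 20 reads) and 74078747 to 74078947 (29 and 13 reads), lie on the strand of the long non-coding genes CT025731.1 and CT025731.4. The first and the last of these overlap exons of both genes, and the other two lie outside their exons. The annotation already joins these genes in part, since the last exon of the transcript of CT025731.1 (74026998 to 74027141) lies in exon 2 of Srd5a2. Under their own names CT025731.1 had 2 and 2 reads and CT025731.4 had 1 and 0. The last exon of the CT025731.4 transcript spans 74055731 to 74056420. That exon was held by 8 and 5 upstream reads counted to Srd5a2, and a form from 74055731 to 74056414 by 3 and 4. The counts under the names of the non-coding genes therefore leave out reads that match CT025731.4. Without the reads that lay wholly upstream the log2 ratio of Srd5a2 was -1.74 (adjusted p = 3.02e-24, exact binomial test), a count also chosen after seeing the data.

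**Figure D4:**
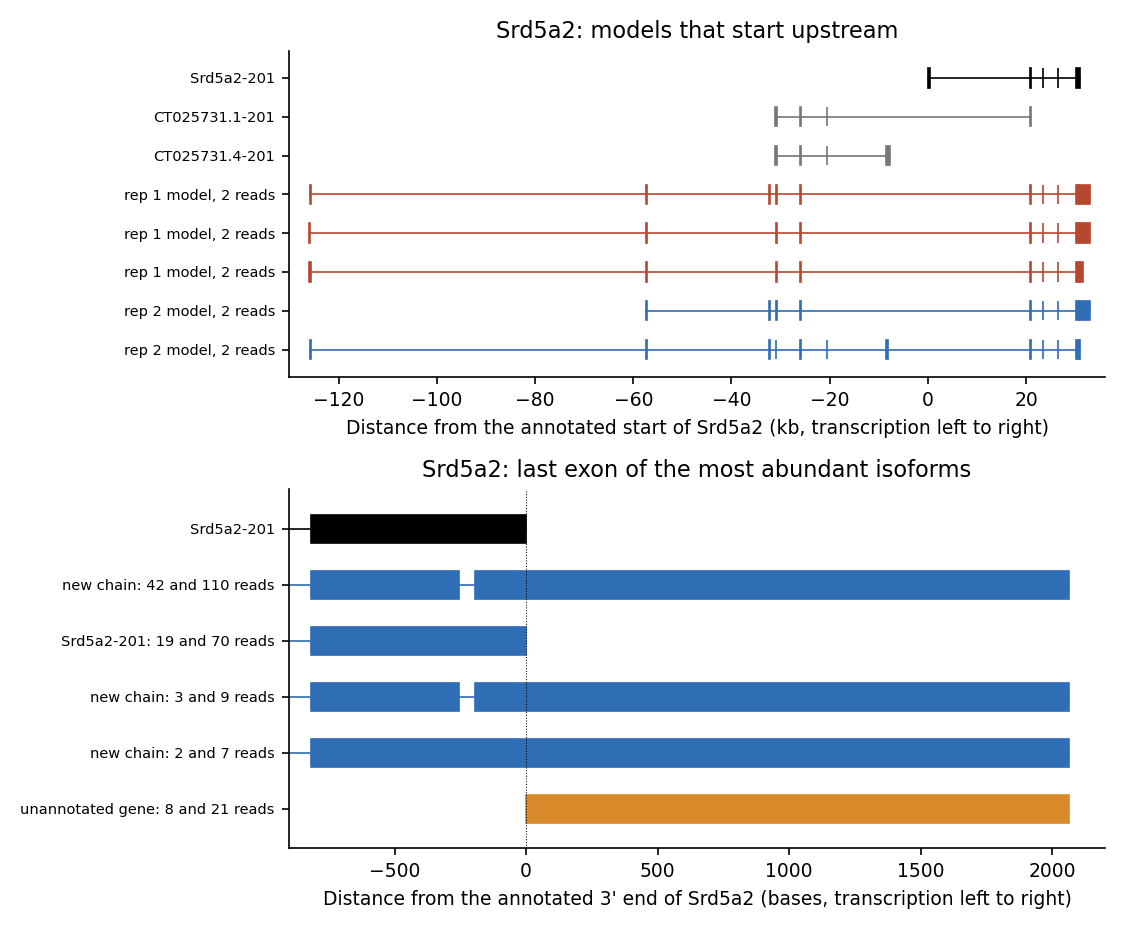
Exon maps of Srd5a2 to scale, with transcription from left to right. The upper panel, in kb from the annotated start, shows the annotated Srd5a2 transcript (black), both long non-coding transcripts (grey) and upstream-started models with 2 reads each (red for replicate 1, blue for replicate 2), which skip exon 1; the lower panel, in bases from the annotated 3' end, shows the last exon of the 4 most abundant isoforms with their reads in replicate 1 and replicate 2, with the 59-base gap and the end 2064 bases further on, and an unannotated gene model there (orange, 8 and 21 reads).

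The start of Srd5a2 that differed between the libraries is printed from the RefSeq promoter window (GRCm38.p6, chr17:74047811-74048110, minus strand), with the start codon in capitals.
Srd5a2 start region: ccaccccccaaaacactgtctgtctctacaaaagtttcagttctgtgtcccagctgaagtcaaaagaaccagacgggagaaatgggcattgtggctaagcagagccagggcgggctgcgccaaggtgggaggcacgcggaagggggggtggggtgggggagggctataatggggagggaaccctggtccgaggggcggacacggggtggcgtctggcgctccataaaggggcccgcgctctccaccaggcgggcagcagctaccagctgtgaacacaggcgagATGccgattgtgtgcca
Of 4 markers of the X-zone, the innermost cortical zone of mice, 2 were lower in replicate 1, as Srd5a2 was, and 1 was higher. Akr1c18 had 312 and 2760 CPM (log2 ratio -3.11) and Pik3c2g had 7.79 and 78.2 CPM (log2 ratio -3.23). Cyp2f2, with 352 and 181 CPM, was higher in replicate 1 (log2 ratio 0.99), and Thrb, with 7.08 and 12.8 CPM, did not pass. The 4 summed to 679 CPM in replicate 1 and 3032 CPM in replicate 2, and the 3 without Akr1c18 to 367 and 272 CPM. The part of the X-zone in the Srd5a2 result was not tested. In bulk tissue, fewer cells of a type and less RNA per cell cannot be told apart.

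Hsd11b1 (chromosome 1, 193221634 to 193264075, minus strand) was read mostly from 2 annotated first exons that lie 21446 bases apart. The near one, which opens the main annotated transcript (ENSMUST00000016338.14), began 100 reads in replicate 1 (64.5%, interval 56.4 to 72) and 49 reads in replicate 2 (53.3%, interval 42.6 to 63.7). The far one began 41 reads in replicate 1 (26.5%, interval 19.7 to 34.1) and 27 reads in replicate 2 (29.3%, interval 20.3 to 39.8). Both annotated transcripts are given with the same start codon, at 193242262, so the choice of first exon changes the untranslated leader. The nearer first exon was the more used in both libraries and the intervals of the libraries overlap for each of them. Between these, an unannotated first exon of 88 bases (193256780 to 193256867) was seen in 3 and 4 reads, and another unannotated one in 0 and 1. The main isoform, the annotated transcript from the near exon, held 99 of 155 reads and 48 of 92 reads, a difference of 11.7 percentage points (adjusted p = 0.52, Fisher's exact test). All 155 and 92 reads lay on models that end within 100 bases of an annotated 3' end. Annotated transcripts, which carry the annotation's ends, held 135 and 72 of these reads, so where the molecules ended was not measured. All 5 junctions of the main transcript were held by 141 (91%) and 80 (87%) reads. The annotated first exons of shorter transcripts began few reads, 3 and 0 at that of a 5-exon transcript and 2 and 8 at another, which begins within exon 4 of the main one. Other reads began at exon 5 (5 and 0) or in exon 6 (1 and 3).

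Srd5a3, Srd5a1 and Hsd11b2 gave too few reads for more than an account of their shape. Srd5a3 (chromosome 5, 76140271 to 76155504, plus strand) was read mostly as its main annotated transcript of 6 exons, which held 42 of 46 reads in replicate 1 (91.3%, interval 79.2 to 97.6) and 18 of 23 reads in replicate 2 (78.3%, interval 56.3 to 92.5). The difference was within counting error (adjusted p = 0.635, Fisher's exact test). Srd5a1 (chromosome 13, 69573449 to 69611442, minus strand) had 3 and 2 reads over all 5 exons of its main annotated transcript and 5 and 3 reads confined to its last exon. The single read of Hsd11b2 (chromosome 8, 105518755 to 105523988, plus strand) followed its annotated 5 exons.

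**Figure D5:**
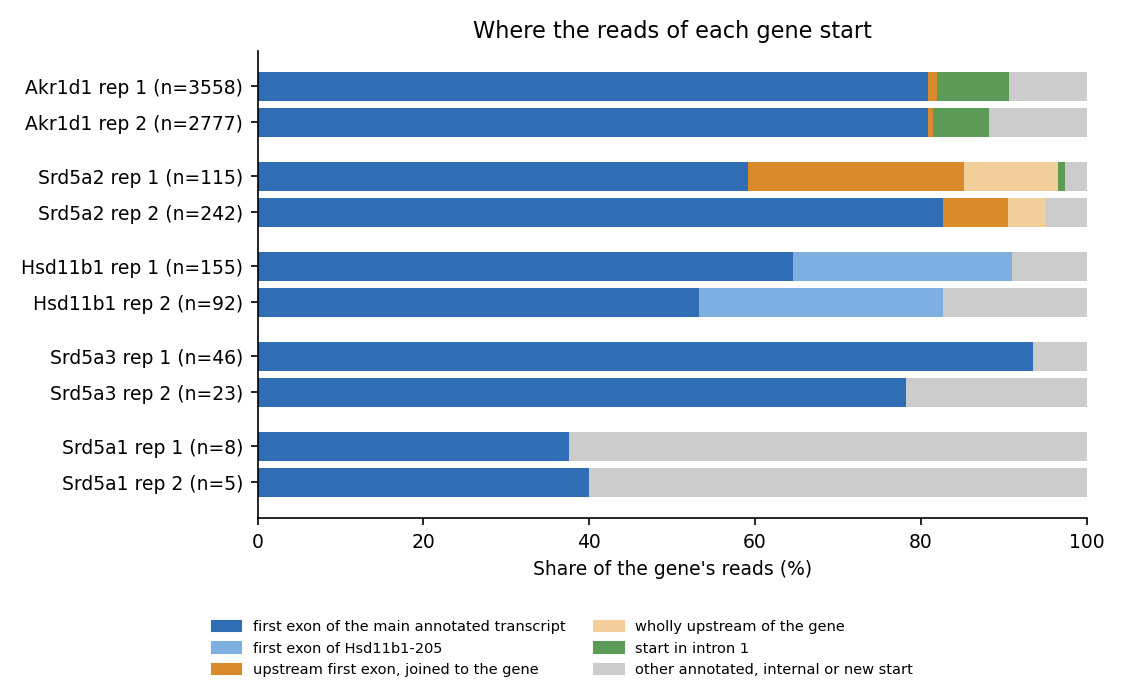
Share of reads of each gene by where they start, for replicate 1 (upper bar of each pair) and replicate 2 (lower bar), with the number of reads beside each bar; Hsd11b2, with 1 and 0 reads, is left out. Akr1d1 keeps 80.8% at its annotated first exon in both libraries, Srd5a2 has 59.1% in replicate 1 and 82.6% in replicate 2, and Hsd11b1 divides its reads between the near and the far first exon.

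The neighbouring pathways were followed through gene lists, whose counts stand against the 12.4% of all genes that passed. Corticosteroid synthesis, the source of the substrates, summed to 76875 CPM in replicate 1 and 76167 CPM in replicate 2 over 11 genes. Of its 10 tested genes 4 were higher and 3 lower in replicate 1, and the 4 highest were Cyp11a1 (19261 and 18500 CPM), Cyp11b1 (20398 and 13534), Cyp21a1 (15598 and 17939) and Star (8352 and 12540). Cyp17a1, which makes the precursors of cortisol and androgens, had 0 and 4 reads. NADPH supply, on which the reductases and Hsd11b1 draw, was led by Me1 (1280 and 1269 CPM), Tkt (1130 and 1359), Taldo1 (1079 and 995) and Idh1 (967 and 804), and 1 of its 9 tested genes was higher and 1 lower in replicate 1. H6pd, which makes NADPH beside Hsd11b1 in the endoplasmic reticulum, had 42.5 and 56.7 CPM.

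Partners of Akr1d1 in bile acid synthesis were present only in part. Of 15 genes, 8 had reads in both libraries, led by Scp2 (747 and 465 CPM), Hsd17b4 (431 and 300), Hsd3b7 (122 and 62.1) and Amacr (61.6 and 25.7). These 4 were the genes of the 6 tested that were higher in replicate 1, and 0 were lower. Cyp7a1 and Cyp8b1, which commit cholesterol to bile acids and set their kind, Baat, which conjugates them, and Acox2 had 0 reads in both libraries. Liver markers beside Akr1d1 were near 0, with Alb and Apoa1 at 4 and 2 reads each, Ttr at 1 and 1, Fga at 2 and 0 and Serpina1a at 1 and 0, whereas Cyp2e1, a further gene of that list, had 219 and 112 reads. The list of 6 summed to 163 CPM in replicate 1 and 125 CPM in replicate 2, against 2518 and 2973 CPM of Akr1d1.

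Other steroid-metabolising families were expressed from a few members each. Of 9 Akr1c hydroxysteroid dehydrogenase genes, Akr1c18 and Akr1cl (1532 and 1402 CPM) held nearly all the reads. Akr1c13 (9.91 and 6.42) and Akr1c14 (3.54 and 2.14) followed, while Akr1c6 and Akr1c12 had 0 reads. Of 3 tested, 1 was higher and 1 lower in replicate 1. Of the Hsd17b and related genes, 2 of 6 tested were higher and 1 lower in replicate 1, and the highest were Hsd17b4, Hsd17b12 (200 and 128 CPM), Hsd17b10 (115 and 109) and Hsd17b7 (43.2 and 84.6). Hsd17b3, which makes testosterone, had 1 and 0 reads, and Hsd17b2 and Hsd17b6 had none. Sulfation and glucuronidation were low, led by Papss1 (171 and 113 CPM), Ugt1a1 (29.7 and 62.1), Sult1a1 (21.9 and 26.8) and Papss2 (5.66 and 5.35), with 1 of 5 tested higher and 1 lower in replicate 1.

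Other sterol and lipid reductases related to the 5-alpha-reductases, were led by Tecr and Dhcr7. Tecr, of fatty acid elongation, had 466 and 410 CPM, Dhcr7, of cholesterol synthesis, 338 and 391 CPM, Lbr 29.0 and 42.8 CPM and Tm7sf2 21.9 and 27.8 CPM, and 0 of 4 tested passed in either direction. Of the dolichol and N-glycan precursor genes around Srd5a3 all 16 were tested, 2 were higher and 0 lower in replicate 1, and Alg2 (214 and 234 CPM), Alg5 (104 and 98.5), Dolk (119 and 81.4) and Mpdu1 (94.1 and 89.9) were the highest. Of the receptors and glucocorticoid-responsive genes, 5 of 11 tested were lower and 0 higher in replicate 1. Fkbp4 (903 and 845 CPM) and Sgk1 (132 and 173) did not pass, and Tsc22d3 (123 and 253) and Fkbp5 (85.6 and 206) were lower. The glucocorticoid receptor gene Nr3c1 had 29.7 and 16.1 CPM and the mineralocorticoid receptor gene Nr3c2 2.83 and 3.21 CPM. The part of the 5 lower genes in the Srd5a2 ratio was not tested.

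Markers of other tissues stand beside these levels as follows. Adipocyte markers, of a cell type known for Hsd11b1, summed to 4020 CPM in replicate 1 and 3431 CPM in replicate 2, with 4 of 6 higher and 0 lower in replicate 1 and Cfd at 2227 and 2103 CPM, and their part in the Hsd11b1 level was not tested. Kidney markers, of the main tissue of Hsd11b2, summed to 4.95 and 4.28 CPM, with Umod, Kap, Slc12a1 and Scnn1b at 0 reads. Medulla markers summed to 11990 and 9406 CPM, with 4 of 5 higher in replicate 1, glomerulosa markers to 2285 and 1504 CPM, with 2 of 3 higher, fibroblast and capsule markers to 447 and 455 CPM, with 1 of 4 lower, and gonad markers to 34.7 and 25.7 CPM, with 1 of 2 higher, Foxl2 at 25 and 1 reads.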

How the data were processed

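Deposited per library were a table of read counts per transcript model, as whole numbers without normalization by the authors, and the exon coordinates of the models. Models were made by TALON on mm10 with GENCODE M21, per the text deposited beside the files, and the aligner is not given in the sources used here. New models were named separately in each library, only models with a read are listed, and a model carries 1 pair of ends for all its reads. Models of annotated transcripts carry the ends of the annotation, so end shares are those of models weighted by reads. The 6 genes, the lists and the tests were chosen with earlier results of these data known.

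Reads were summed per annotated gene, spike-ins aside, and expressed as CPM. Gene ratios (replicate 1 over replicate 2, prior of 0.5 read) were tested by an exact two-sided binomial test at TMM-scaled totals for genes with at least 10 reads, and main isoform shares by Fisher's exact test for genes that reached 20 reads in both libraries, both adjusted by Benjamini-Hochberg with a threshold of 0.05. Isoforms were matched by transcript identifier or intron chain, and new single-exon models of a gene were pooled. Ends matched within 100 bases. Limits for a count of 0 are 3 reads. Alternatives were other scalings, minimums, model classes and end tolerances and edgeR's exact test. Both tests were tested on simulated data that held counting error only, so their calls under a spread between libraries were not checked. A gene of 1 list is not reported here. Named were all 6 genes, up to 4 of the highest genes of each list, up to 5 isoforms per gene and new chains with at least 5 reads in a library. Tools were Python 3.11.15, SciPy 1.17.1, pandas 2.3.3, R 4.3.3, edgeR 4.0.16 and DESeq2 1.42.0 (size factors only).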

Additional observations from a re-analysis of the deposited data

Results flagged for a closer look

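Reads outside the 6 genes were found on unannotated gene models beside 2 of them, above the 3 reads that a count of 0 allows. On the strand of Srd5a2, a single-exon model of 2065 bases (74014891 to 74016955) held 8 reads in replicate 1 and 21 reads in replicate 2. It begins at the annotated 3' end of Srd5a2 and ends where the extended models of that gene end. These are ends of models, so the match was not measured on single reads. Pooled with overlapping models the log2 ratio of Srd5a2 was -1.76. On the strand opposite Akr1d1, a model beside the annotated start held 9 reads in replicate 1 (37529997 to 37530173) and 5 reads in replicate 2 (37529997 to 37530212). Other opposite-strand models held 7 reads over 37535129 to 37536510 and 8 reads over 37567172 to 37568390, both in replicate 2. With 2 libraries in the group, no test for a sample far from the others was possible.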

How the results depend on the processing

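Of 122 values under an alternative, 108 counted as unchanged. Ratios had to keep their direction and side of the threshold, levels and shares to stay within the replicate spread, and genes to keep their place. Counts of genes that passed had only to stay within a set fold range, which 1007 genes on annotated transcripts alone, beside 1373, did. Part of the 108 could not fail, since with 2 libraries the value of each always lies within the SD of their mean. Shares of first exons and 3' ends were identical at tolerances of 50, 100 and 500 bases, so they add no check either. Spike-in scaling turned the log2 ratio of Akr1d1 to 0.12 and took Hsd11b1, at 0.51, past the threshold, with 2471 genes passing instead of 1373; this scaling shifts the median ratio of all genes by 0.31. With edgeR's exact test 27 genes and 0 of the 6 passed, and the ratios of Akr1d1 (-0.21) and Srd5a2 (-1.63) no longer did. Srd5a2 reads that start upstream alone gave -0.045. Counting annotated transcripts only gave a mean of 2141 CPM for Akr1d1, 2.13 for Srd5a1, 44.2 for Srd5a2 and 86.3 for Hsd11b1, which puts Hsd11b1 above Srd5a2. Without incomplete splice matches and genomic models 53 genes passed the isoform test instead of 142. With models of at least 2 reads the isoform difference of Srd5a2 turned to 3.62 percentage points. The cause of these changes was not tested. Leaving out a library moved each mean level to the value of the other library. Depth limits Srd5a1, Srd5a3 and Hsd11b2. Srd5a1 could not be tested at 50 reads or on annotated transcripts, nor Srd5a3 isoforms on models of 2 reads. No paired analysis was possible because the series holds 1 group.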
